A study of Mus musculus with 8 samples.

Results

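The bombesin-like system of the mouse was described by 4 genes: the receptors Nmbr and Grpr and the peptide precursors Nmb and Grp. They were found as every non-control probe whose gene name in the scanner files was one of these symbols, which gave 5 probes of 55681 and 4 genes of 35753 named on the array. Nmbr was proposed because its CKO-over-WT difference was large in an earlier look at these same arrays, so the differences of the 4 genes between genotypes are given below as descriptions without a test. RNA bound to epitope-tagged ribosomes was recovered from the hippocampus with an anti-HA antibody, amplified, labelled with Cy5 and hybridised to 1-colour Agilent arrays, 1 array per mouse. CKO mice (n = 4) were Ctcf loxP/loxP, and WT mice (n = 4) were Ctcf wild type. Both groups were Camk2a-Cre positive and Ribotag positive, C57BL/6, naive and at least 3 months old, with 3 males and 1 female per group. The series' design text describes the control mice instead as carrying the loxP alleles without Cre. The genotype and Cre status in the sample labels were followed here. Camk2a-Cre drives recombination mainly in excitatory forebrain neurons, so both the loss of Ctcf and the tag on Rpl22 depend on the cells in which Cre was active.

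Bombesin-like peptides are short amidated neuropeptides cut from larger precursors. Neuromedin B, encoded by Nmb, binds preferentially to the receptor encoded by Nmbr, and gastrin-releasing peptide, encoded by Grp, binds preferentially to the receptor encoded by Grpr. Both receptors couple through Gq-class G proteins to phospholipase C, which releases inositol trisphosphate and calcium and activates protein kinase C. In the forebrain, Grpr is known on GABAergic interneurons of the amygdala, and Grp is known in principal neurons.

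The sequence that carries the main measurement is the Nmbr probe, a 60-base oligonucleotide at chr10:14490303-14490362 on the + strand of mm9. It is shown because all Nmbr values below come from it. Its letters read as 20 codons with a single in-frame stop, the last codon, which is in capitals.
Nmbr probe: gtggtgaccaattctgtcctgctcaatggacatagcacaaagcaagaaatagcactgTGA
The RefSeq promoter table (build GRCm38.p6, 250 bases before to 50 after the start) held 3 of the 4 genes. The promoters of both receptors are shown for comparison of a receptor gene whose groups separated with one whose groups did not. That of Nmbr lies at chr10:14759697-14759996 on the + strand, and that of Grpr at chrX:163549687-163549986 on the - strand. Capitals mark GGGCGG in Nmbr and a match to AGGNGGC in Grpr.
Nmbr promoter: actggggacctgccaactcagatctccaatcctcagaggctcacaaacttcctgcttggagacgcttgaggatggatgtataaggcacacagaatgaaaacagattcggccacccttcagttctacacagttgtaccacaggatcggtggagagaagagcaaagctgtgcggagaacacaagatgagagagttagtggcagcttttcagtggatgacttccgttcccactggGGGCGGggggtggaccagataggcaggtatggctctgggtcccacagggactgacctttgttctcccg
Grpr promoter: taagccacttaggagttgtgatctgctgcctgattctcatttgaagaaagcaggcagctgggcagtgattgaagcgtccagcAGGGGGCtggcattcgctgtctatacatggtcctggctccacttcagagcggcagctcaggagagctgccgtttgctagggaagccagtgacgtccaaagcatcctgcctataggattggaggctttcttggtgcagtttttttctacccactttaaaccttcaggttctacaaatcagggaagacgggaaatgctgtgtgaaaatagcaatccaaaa
Both strands were searched. A 12-base form of the core motif known to be bound by CTCF was found in 1.15% of 32851 promoters of this length and in none of the 3 that were matched. Its last 7 bases, AGGNGGC, which therefore overlap every match of the longer form, was in 29.4% of promoters and occurred once in Grpr, 168 bases before the start. GGGCGG was in 35.7% of promoters, once in Nmbr at 18 bases before the start and 3 times in Nmb. The Nmbr promoter held 7 CpG dinucleotides, that of Grpr 6 and that of Nmb 14, and the median over all promoters was 7. These are letter matches and do not show binding.

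Across the arrays, 72.2% to 79.2% of probes were well above background in CKO mice and 77.9% to 81.5% in WT mice. The lowest share was that of CKO 3, whose median correlation with the other arrays, 0.951, was also the lowest. Levels are given as log2 of the processed signal minus the 75th percentile of the array, so that 0 is the level of a probe brighter than 75% of those on its array. Ctcf was at -2.24 ± 0.29 in CKO mice and -1.37 ± 0.30 in WT mice (SD, n = 4 each), 54.8% of the WT level, with an exact two-sided permutation p of 0.0286, the smallest that 4 against 4 mice allow, and a limma adjusted p of 0.724. Over the whole array, limma called 1 of 29529 genes at an adjusted p under 0.05, or 0.00339%. All 8 markers of excitatory neurons were measured, with a summed level of 6.78 to 7.14 in CKO mice and 6.69 to 6.93 in WT mice on the log2 scale. Their median difference, CKO minus WT, was 0.21, beside -0.078 over all genes. Camk2a made up 40.5% to 57.2% of the sum. Without it the sum was 5.83 to 6.39 in CKO mice and 5.54 to 5.99 in WT mice, which overlap. The arrays lay on 3 slides. Slide 2 held CKO 1, CKO 2, WT 2 and WT 3, slide 3 held CKO 3, CKO 4 and WT 4, and slide 1 held WT 1 alone.

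Nmbr, the neuromedin B receptor, was brighter in every CKO mouse than in any WT mouse. Its processed signal was 5549, 2245, 4092 and 4887 in CKO 1 to 4, against 1281, 947, 686 and 794 in WT 1 to 4. As a share of the array's 75th percentile, this was 131%, 55.1%, 103% and 93.2% in the CKO mice and 25.0%, 20.4%, 16.3% and 15.5% in the WT mice. The groups did not overlap: 3 CKO mice lay near the 75th percentile, CKO 2 lay lower, and the WT mice lay at 25.0% of it or below. The mean log2 level was -0.13 ± 0.53 in CKO mice and -2.40 ± 0.32 in WT mice (SD, n = 4 each). The log2 difference, CKO minus WT, was 2.27 (SE 0.28), a 4.82-fold higher level in CKO mice. The lowest CKO mouse lay 1.14 log2 units, or 2.20-fold, above the highest WT mouse. The scanner software's own error of the spot was 8.01% to 8.73% of its signal, and 1 spot per array measured the gene.

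CKO 2 and WT 3 were the female mice, and CKO 2 had the lowest Nmbr level of its group. Among males only, the difference was 2.44. Within slide 2 it was 2.22 over 2 CKO and 2 WT mice, and within slide 3 it was 2.66 over 2 CKO mice and 1 WT mouse. In the order of differences over all 29529 genes, with the highest in CKO first, Nmbr stood in position 10. A high position follows from the choice of Nmbr on this same difference, so nothing is read from it. In tissue lysates, more tagged cells with the transcript and more transcript per cell cannot be told apart.

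Grpr, the receptor for gastrin-releasing peptide, did not separate the groups. Its probe lies at chrX:159952638-159952697 on the - strand of mm9. The processed signal was 1584, 1315, 1023 and 1046 in CKO 1 to 4, against 1465, 1695, 1617 and 1573 in WT 1 to 4. In this signal CKO 1 lay within the WT range and the other CKO mice below it, whereas after scaling CKO 2 also lay within it. The scaled log2 levels were -1.42, -1.63, -1.95 and -2.33 in CKO mice and -1.81, -1.45, -1.38 and -1.70 in WT mice. Their means were -1.83 ± 0.40 in CKO mice and -1.58 ± 0.20 in WT mice (SD, n = 4 each). The difference was -0.25 (SE 0.22), 84.3% of the WT level, which is close to its own SE. Without CKO 1 it was -0.38 and without CKO 4 it was -0.08, and within slides it was -0.11 on slide 2 and -0.43 on slide 3.

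**Figure D1:**
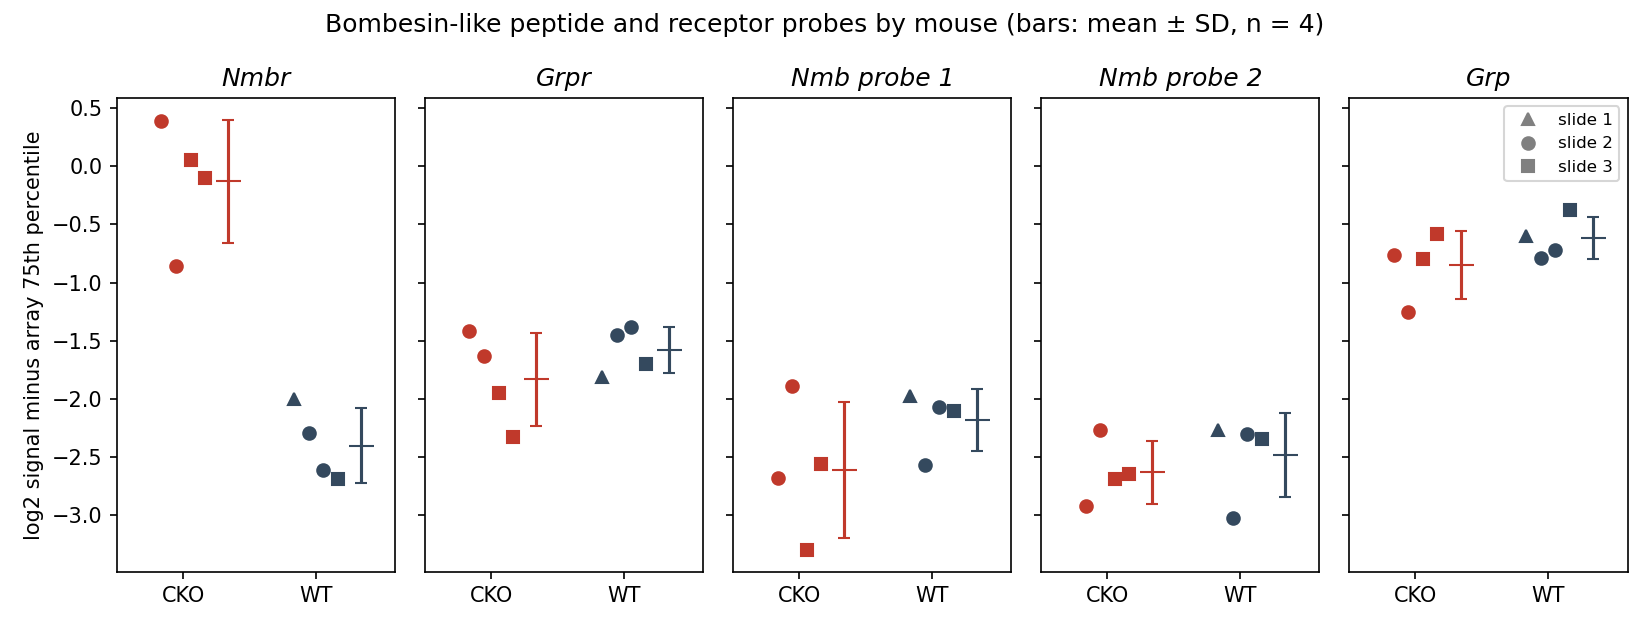
Log2 processed signal minus the array's 75th percentile for each probe of the 4 genes, with 1 point per mouse, CKO left of WT, and the mean ± SD of 4 mice per group. The CKO points of Nmbr lie at -0.86 and above and its WT points at -2.0 and below, whereas the groups of Grpr, Nmb and Grp overlap.

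Nmb, the precursor of neuromedin B, was measured by 2 probes that share 52 of their 60 bases, so they are not independent. Both lie on the - strand of chromosome 7 in mm9, at chr7:88047128-88047187 and chr7:88047120-88047179. Both also contain AATAAA, the letters of a polyadenylation signal, which 10.1% of the 55681 probes hold. The first probe had a processed signal of 658, 1102, 402 and 887 in CKO 1 to 4, against 1305, 783, 1002 and 1193 in WT 1 to 4. In this signal CKO 2 and CKO 4 were within the WT range and CKO 3 was lowest of all 8 mice, whereas after scaling CKO 2, at -1.89, lay above every WT mouse, the highest of which was at -1.97. The log2 level was -2.61 ± 0.58 in CKO mice and -2.18 ± 0.27 in WT mice (SD, n = 4 each), a difference of -0.43 (SE 0.29) or 74.2% of WT. The second probe gave 558, 846, 615 and 842 in CKO 1 to 4, against 1061, 574, 852 and 1012 in WT 1 to 4, with WT 2 among the lower CKO mice. Its difference was -0.15 (SE 0.23), 90.4% of WT. The groups overlapped on both probes.

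The 2 probes of Nmb differed from each other by mouse. The first minus the second was 0.24, 0.38, -0.61 and 0.07 on the log2 scale in CKO 1 to 4 and 0.30, 0.45, 0.23 and 0.24 in WT 1 to 4. Only CKO 3 had the second probe brighter than the first, and its value was the largest in size of the 8. The CKO 3 array also had the smallest share of probes well above background, 72.2%. The part of the array in this value was not tested. The first probe's difference between the genotypes, -0.43 with all 8 mice, was -0.20 without CKO 3 and -0.67 without CKO 2. Within slide 2 it was 0.03 (SE 0.39) over 2 CKO and 2 WT mice. Within slide 3 it was -0.83 over 2 CKO mice, CKO 3 among them, and 1 WT mouse. Slide and single mice cannot be told apart here.

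Grp, the precursor of gastrin-releasing peptide, did not separate the groups either. Its probe lies on the + strand of chromosome 18 in mm9. The processed signal was 2499, 1713, 2272 and 3517 in CKO 1 to 4, against 3386, 2695, 2552 and 3952 in WT 1 to 4. In this signal CKO 1, CKO 2 and CKO 3 were below every WT mouse, and CKO 4 was above 3 of them, whereas after scaling CKO 1, at -0.76, lay above WT 2, at -0.79. The scaled log2 level was -0.85 ± 0.29 in CKO mice and -0.62 ± 0.18 in WT mice (SD, n = 4 each). The difference was -0.23 (SE 0.19), 85.4% of WT, and it was -0.09 without CKO 2 and -0.15 without WT 4. Within slides it was -0.25 on slide 2 and -0.31 on slide 3.

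All 5 probes were well above background on all 8 arrays and passed the filter of at least 4 such arrays, so no member was lost. Among the 4 genes, 1 had groups that did not overlap, beside 3.32% of all genes tested (1.96% higher and 1.36% lower in CKO mice), and because the gene was proposed on this same contrast nothing is read from that count. Across the 8 arrays, which share the genotype groups and slides, Pearson's r with Nmbr was -0.408 for Grpr, -0.621 for Nmb and -0.325 for Grp. After each genotype's mean was removed, r was -0.0598, -0.587 and 0.477 in that order (n = 8 arrays).

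**Figure D2:**
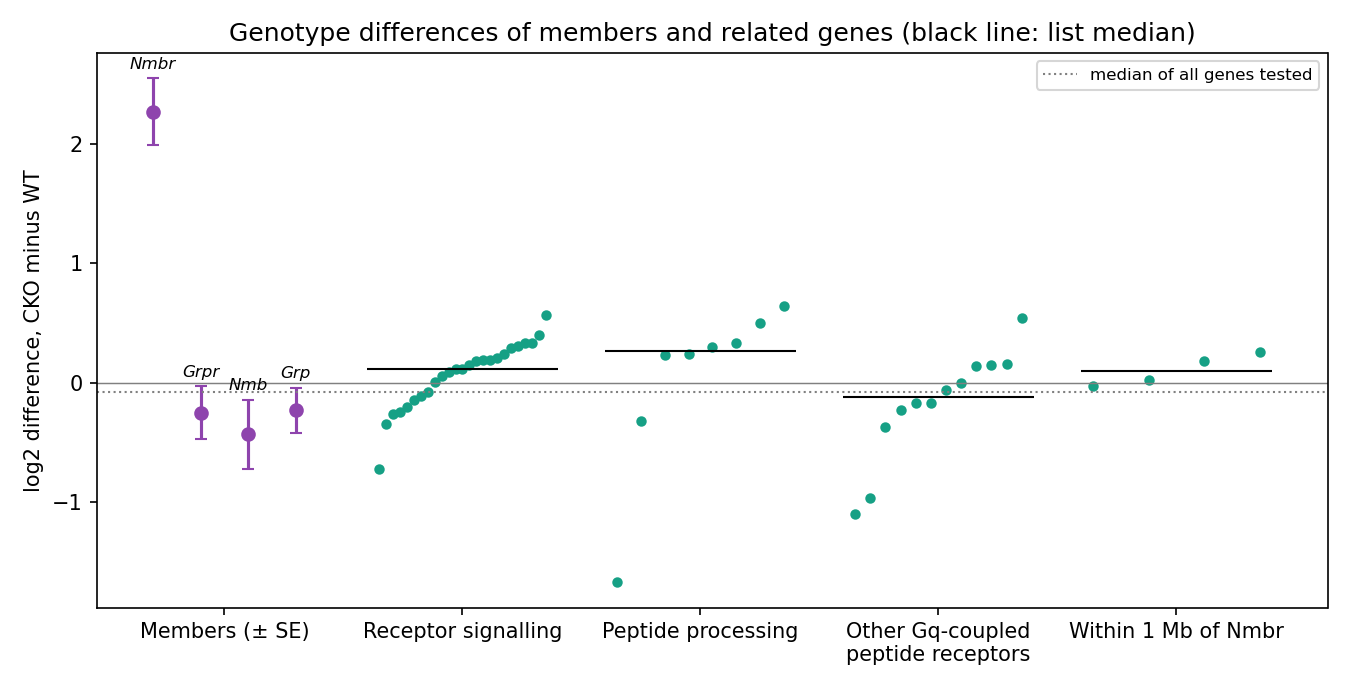
Log2 difference, CKO minus WT, for the 4 bombesin-system genes (with the SE) and for the genes of the related lists (dots, with a black line at each list's median). Nmbr lies at 2.27, the other 3 member genes lie between -0.43 and -0.23, and most listed genes lie within 1 log2 unit of 0.

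The genes downstream of these receptors were examined next. The signalling list held 25 genes, with the G protein subunits, the phospholipase C beta enzymes, inositol trisphosphate receptors, protein kinase C isoforms, receptor kinases, arrestins and regulators of G protein signalling, and Brs3, the orphan-like receptor of the bombesin family. All 25 were measured. None passed the adjusted threshold, with the smallest limma adjusted p at 0.724. At an unadjusted p under 0.05 in limma, 1 was higher and 1 was lower, against 5.30% of all genes tested (2.50% higher and 2.80% lower, or 737 and 828 genes). The split over all genes depended on the scaling, with 891 higher and 542 lower after median scaling, 758 and 511 after quantile normalization, and 1037 and 323 with the authors' deposited values. The median difference was 0.12, beside -0.078 over all genes, and 17 of 25 genes had a value above 0.

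Gna14, a Gq-class alpha subunit, had log2 levels of -3.19, -2.79, -4.27 and -3.10 in CKO mice and -2.55, -2.81, -2.33 and -2.78 in WT mice, a difference of -0.72 (SE 0.31, limma adjusted p 0.724). Only CKO 3, the array with the smallest share of probes well above background (72.2%), lay far below the others, and the groups overlapped. Rgs4, a GTPase-activating protein that shortens Gq signals, was at 4.44, 4.28, 4.72 and 4.19 in CKO mice and 3.89, 3.97, 3.95 and 4.23 in WT mice, a difference of 0.40 (SE 0.17, limma adjusted p 0.724). Grk6, a receptor kinase, differed by 0.57 (SE 0.25). Prkca, the alpha isoform of protein kinase C, was the only listed gene here whose groups did not overlap, with a difference of 0.33 (SE 0.15, limma adjusted p 0.724). That is 1 of 25 genes, beside 3.32% of all genes tested, so nothing is read from it. Brs3 had log2 levels of -2.40, -1.73, -2.66 and -2.32 in CKO mice and -2.12, -1.79, -1.61 and -2.61 in WT mice, a difference of -0.24 (SE 0.27).

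Neuropeptide precursors are cut and amidated by proteases and enzymes of the secretory pathway. All 8 listed processing genes were measured, 6 with a value above 0, and the median difference was 0.27, beside -0.078 over all genes. None passed the adjusted threshold (smallest limma adjusted p 0.724). At an unadjusted p under 0.05 in limma, 3 were higher and 1 was lower, beside 2.50% higher and 2.80% lower among all genes tested. Scg5, a chaperone of the prohormone convertase PC2, was at 2.47, 1.96, 2.55 and 1.74 in CKO mice and 1.51, 1.28, 1.54 and 1.82 in WT mice, a difference of 0.64 (SE 0.22). CKO 4 was below WT 4, and the other CKO mice were above every WT mouse. Pcsk1n, an inhibitor of prohormone convertase 1, was at 5.53, 5.53, 5.80 and 5.22 in CKO mice and 4.77, 5.14, 5.20 and 4.97 in WT mice, with no overlap and a difference of 0.50 (SE 0.18). Pcsk2, which encodes PC2, also had groups that did not overlap, with a difference of 0.33 (SE 0.14). These were 2 of the 8 listed genes, both higher in CKO mice, beside 1.96% higher and 1.36% lower among all genes tested. The list was chosen with earlier results of these data known, so nothing is read from this count. Mme, a peptide-degrading membrane protease, differed by -1.67 (SE 0.70), but was well above background in 1 CKO and 3 WT mice only. Pam, the other listed gene with a value below 0, differed by -0.32 (SE 0.25). The summed log2 level of the list was 6.48 to 6.8 in CKO mice and 6.10 to 6.26 in WT mice. Pcsk1n made up 39.9% to 50% of that sum, and without it the sum was 5.56 to 5.80 in CKO mice and 5.21 to 5.50 in WT mice. The median level of the 8 genes overlapped, at 1.06 to 1.84 in CKO mice and 0.67 to 1.25 in WT mice.

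Other Gq-coupled receptors for neuropeptides gave a comparison for the receptors. Of 22 listed genes, 12 were measured, with a median difference of -0.11, 4 above 0 and 8 below. The sign of this median changed with the scaling, being 0.033 with each array's median as the scale. None passed the adjusted threshold (smallest limma adjusted p 0.724) and no gene had groups that did not overlap. Ednra, an endothelin receptor of vascular cells, was at -4.52, -3.38, -4.29 and -4.20 in CKO mice and -3.18, -3.05, -3.70 and -2.06 in WT mice, a difference of -1.10 (SE 0.37). CKO 2 lay within the WT range. Ednrb, the other endothelin receptor, differed by 0.54 (SE 0.27) and Nmur1, a neuromedin U receptor, by -0.37 (SE 0.23). The 12 measured genes ranged from -1.10 to 0.54, and the other 10 were too dim to be measured. Among those measured, the Tacr2 probe was at a high log2 level of 5.67 to 6.40, and its specificity was not tested.

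Markers of other cell types of the tissue were examined beside these values. The 4 choroid plexus markers were all above 0, with a median difference of 0.40 and a summed log2 level of 2.83 to 3.76 in CKO mice and 1.84 to 2.81 in WT mice. Ttr, the defining transport protein of that epithelium, differed by 1.16 (SE 0.36) and its groups did not overlap. The groups did not overlap for 2 of these 4 markers, Ttr and Kl, beside 3.32% of all genes tested. Ttr made up 52.8% to 85.2% of the sum, and without it the sum was 0.52 to 1.09 in CKO mice and 0.21 to 0.75 in WT mice, which overlap. Of 12 interneuron markers, 11 were measured, with a median of 0.12 and a summed level of 6.29 to 6.85 in CKO mice and 6.29 to 6.59 in WT mice. The Lhx6 probe made up 61.1% to 73.3% of that sum. Its log2 level was 5.58 to 6.30, close to the 5.66 to 6.26 of Camk2a, and the probe's specificity was not tested. Without Lhx6 the sum was 4.93 to 5.19 in CKO mice and 4.64 to 4.96 in WT mice, with a small overlap. Pvalb, a calcium-binding protein of a class of interneurons, differed by 0.55 (SE 0.21, limma adjusted p 0.724). It was the 1 marker of this list at an unadjusted p under 0.05 in limma. That is 1 of 11 measured markers, beside 5.30% of all genes tested, so nothing is read from it. The median difference was 0.095 over 7 of 8 microglia markers, 0.32 over 5 of 6 astrocyte markers, 0.14 over 6 of 6 oligodendrocyte markers and 0.023 over 4 of 5 markers of endothelium and pericytes. Mag, 1 of the 6 oligodendrocyte markers, had groups that did not overlap, with a difference of 0.54 (SE 0.20), beside 3.32% of all genes tested. Pecam1, a marker of endothelium, differed by -0.85 (SE 0.34), and its groups overlapped. No gene of these lists passed the adjusted threshold. Vip among the interneuron markers, C1qc, Gja1 and Pdgfrb were too dim to be measured. Their part in the Nmbr difference was not tested.

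Genes near Nmbr on chromosome 10 were also examined. Within 1 Mb of its probe in mm9, the array named 10 genes or transcribed regions, of which 4 were measured. All 4 lay on the lower-coordinate side. Vta1, which acts in sorting to multivesicular bodies, was 109 kb away and differed by 0.02 (SE 0.19), and its second probe by 0.37. Rpl23a, a ribosomal protein gene of a family with many near-identical copies and so uncertain, was 247 kb away and differed by 0.26 (SE 0.16). Hivep2, a zinc finger transcription factor, was 620 kb away and differed by 0.18 (SE 0.24). A230061C15Rik was 795 kb away and differed by -0.03 (SE 0.34). Their limma adjusted p ran from 0.724 to 0.968 and none had groups that did not overlap. Gje1, the nearest named gene at 54 kb, was well above background on 0 arrays, and the regions on the higher-coordinate side were also not measured. The measured neighbours of Grpr had a median difference of -0.041 (14 of 18 names), those of Nmb 0.0024 (51 of 54) and those of Grp -0.17 (15 of 17).

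**Figure D3:**
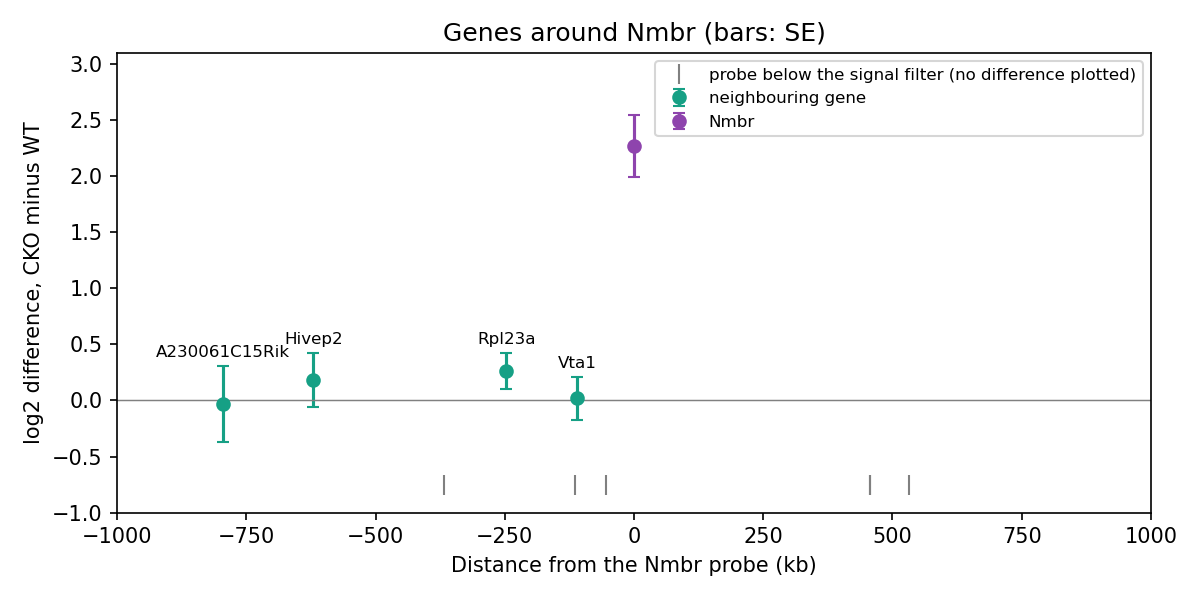
Log2 difference, CKO minus WT, against distance in kb from the Nmbr probe for the measured genes within 1000 kb (bars, SE), with Nmbr itself at distance 0 and ticks for probes too dim to be measured. Nmbr lies at 2.27, and the 4 measured neighbouring genes lie between -0.03 and 0.26.

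The 5 genes whose levels were most like those of Nmbr over the 8 arrays were chosen by Pearson's r from 18551 named genes well above background on at least 4 arrays. Their r was 0.985 for Tmem35b, 0.963 for Mnd1, 0.960 for Mettl25, 0.960 for Trim36 and 0.955 for Lrrc24. These values contain the difference between the genotypes, which all 5 share in sign. Once each genotype's mean was removed, r was 0.846 for Tmem35b, 0.613 for Mnd1, 0.726 for Mettl25, 0.593 for Trim36 and 0.647 for Lrrc24 (n = 8 arrays). High values are favoured here too, since the genes were chosen for high r on the same 8 arrays.

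Mnd1, a meiotic recombination factor, was at 0.20, -0.72, 0.14 and 0.35 in CKO mice and -3.28, -2.25, -3.77 and -3.43 in WT mice, a difference of 3.18. As with Nmbr, CKO 2 was the lowest CKO mouse, as it was for each gene chosen here. The choice by r with Nmbr over these arrays favours such a match. Trim36, a RING-finger ubiquitin ligase, was at -1.37, -1.94, -1.11 and -1.31 in CKO mice and -2.83, -3.02, -2.86 and -2.72 in WT mice, a difference of 1.42, again with CKO 2 the lowest of its group. Tmem35b differed by 0.36, Lrrc24 by 0.53 and Mettl25 by 0.80. The 5 names depended on the arrays used: leaving out 1 mouse at a time, 1 to 4 of them were again among the 5, and with genotype means removed 0 were.

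**Figure D4:**
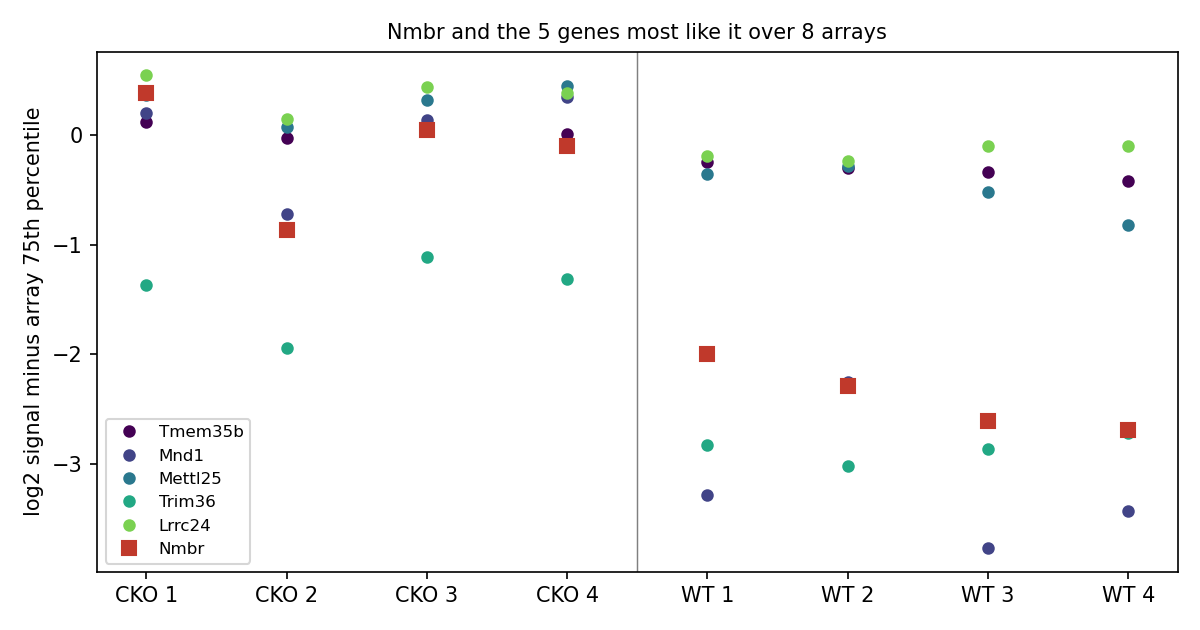
Log2 level relative to the array's 75th percentile in each mouse, CKO left of WT, for Nmbr (squares) and the 5 genes most like it (dots). Each of the 6 genes lies higher in the 4 CKO mice than in the 4 WT mice, and the vertical offsets between genes are not compared, since they come from different probes.

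Of the 24 alternatives tried, 7 cannot move the difference of a gene with 1 bright probe in this balanced design, namely the filter and probe rules, the sex covariate, the replicate block and the other prior variance. Under the other 17, the Nmbr difference kept its sign and lay between 1.84 and 2.66. The lowest value came from normexp background correction with quantile normalization and the highest from slide 3 alone, where WT was 1 mouse. The authors' deposited values gave 2.26. Grpr lay between -0.43 and -0.01 and Grp between -0.32 and -0.02 under the same 17. Nmb lay between -0.83 and 0.13, with the sign turned in 3 settings.

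**Figure D5:**
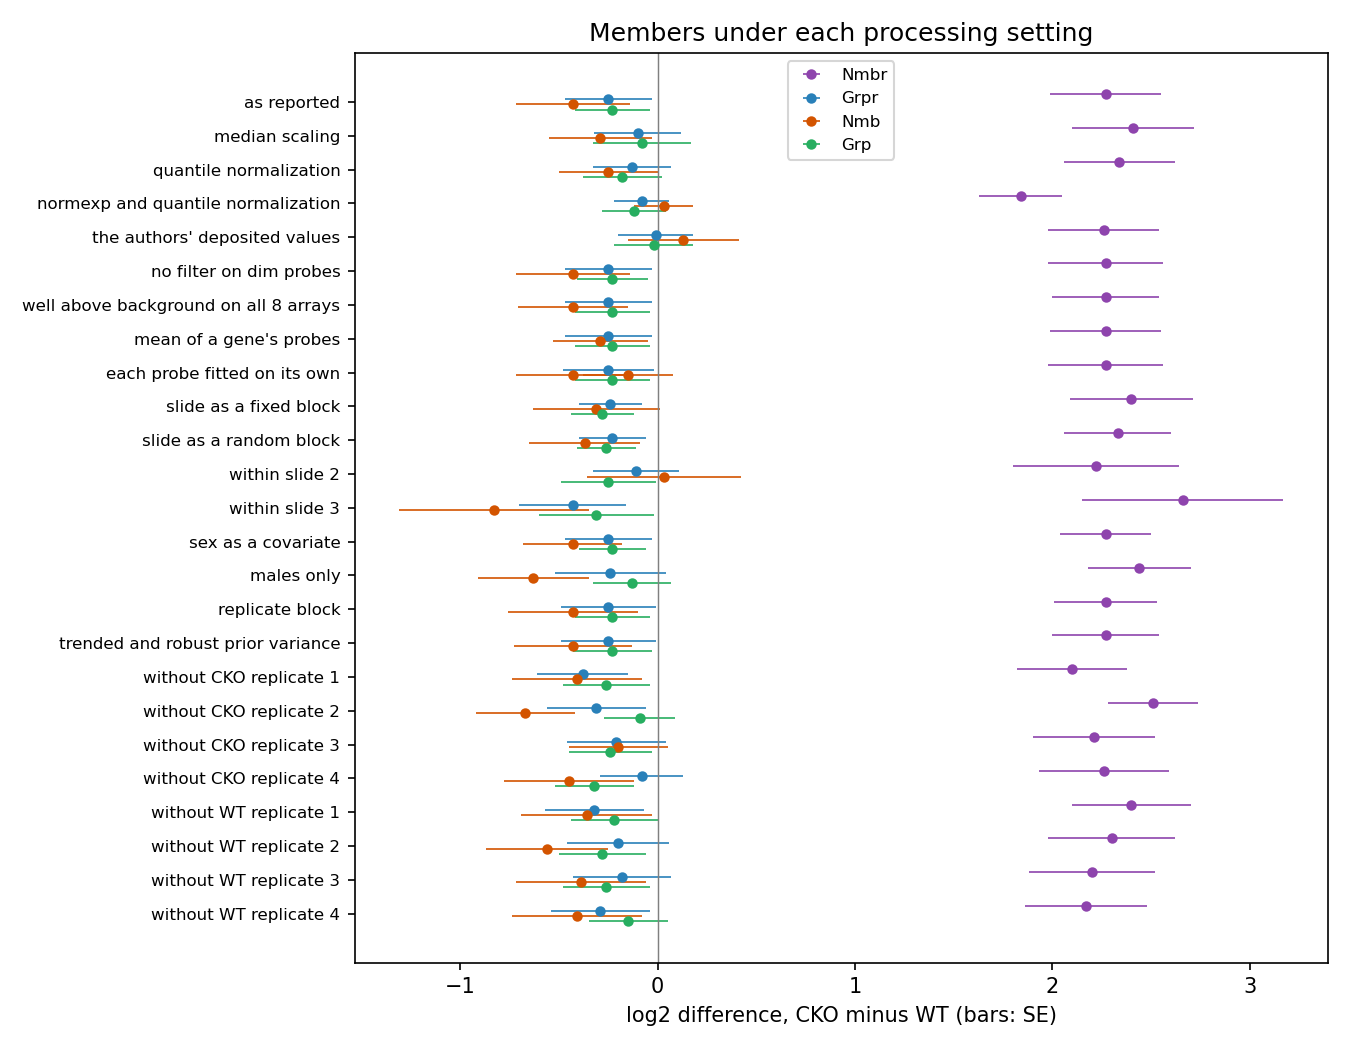
Log2 difference, CKO minus WT, with its SE for each of the 4 genes as reported and under each alternative processing or set of mice. Nmbr stays between 1.84 and 2.66, and the other 3 genes stay within 1 log2 unit of 0, with Nmb on both sides of it.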

How the data were processed

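The deposited scanner files hold a red-channel spot intensity, made per the file headers with Agilent Feature Extraction 11.5.1.1 (version 11.5 in the submitters' processing notes), with probe coordinates of mm9. Per the labels' protocols, the RNA went through whole-transcriptome amplification and Cy5 labelling. The authors also deposited an intensity table on a linear scale, whose medians were 1507, 1362, 1987 and 1561 in CKO 1 to 4 and 1309, 1313, 1263 and 1645 in WT 1 to 4. How it was centred and normalized is not given in the sources used.

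From 59305 non-control spots, flagged spots were left out, spots of a probe were averaged, and the processed signal was put on the log2 scale and each array's 75th percentile subtracted. Of 55681 probes, 18 lacked an unflagged spot on some array, and 44316 were well above background on at least 4 of 8 arrays. Each gene was taken at its brightest probe (29529 genes). No spot was saturated. Accessions named 28331 probes through a GRCm38.p6 table used for names. The 2 genotypes were tested with limma 3.58.1 under R 4.3.3, with Benjamini-Hochberg adjustment over all genes. The code was checked on simulated data. The number of arrays limits the precision. The mice are labelled as biological replicates.

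The members and lists were chosen with earlier results of these data known. Named genes were the 4 members, per list the 3 with the smallest unadjusted p, the measured neighbours of Nmbr, the 5 genes most like it and Ctcf. Brs3, Prkca, Pcsk2, Pam, Tacr2, Ttr, Kl, Mag, Pecam1 and Pvalb, and list sums without their largest gene, were added after values were seen.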

Additional observations from a re-analysis of the deposited data

Results flagged for a closer look

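Of 56 groups of 4 mice examined for a single mouse apart from the rest by Dixon's test, 3 held one, and chance gives about 1 in 20. On the second Nmb probe, WT 2 was at -3.02 and the other WT mice at -2.34 to -2.27, which lowers the WT mean there. For Hivep2, a neighbour of Nmbr, WT 4 was at -1.35 and the other WT mice at -2.09 to -1.98. For Ednrb, WT 3 was at -3.13 and the other WT mice at -2.21 to -2.17. No value of Nmbr, Grpr or Grp stood apart in this way.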

How the results depend on the processing

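The differences of Nmbr, Grpr and Grp kept their sign under the 17 of 24 alternatives that can move them. With the authors' deposited values, however, Grpr was at -0.01 (SE 0.19) and Grp at -0.02 (SE 0.20), each smaller in size than its SE. Nmb, with a difference of -0.43 as reported, was 0.03 with normexp and quantile normalization, 0.13 with the authors' deposited values and 0.03 within slide 2. Leaving out 1 mouse at a time gave 2.10 to 2.51 for Nmbr, -0.38 to -0.08 for Grpr, -0.67 to -0.20 for Nmb, -0.32 to -0.09 for Grp, -1.0 to -0.76 for Ctcf, 0.048 to 0.24 for the signalling list, 0.13 to 0.37 for the processing list, -0.17 to -0.027 for the other receptors and 0.064 to 0.21 for the neighbours of Nmbr. The other receptors' median was 0.11 with no filter on dim probes, 0.033 with median scaling and 0.02 with the authors' values. Median scaling moved the median of all genes to 0.065, against -0.078 as reported. The count of genes past the adjusted threshold, 1 as reported (lower in CKO), was 0 with quantile normalization, the authors' values, each probe fitted on its own, slide 2 alone, males only and the replicate block, 2 with no filter (both lower), 5 with all 8 arrays well above background (all higher), 4 with normexp and quantile normalization (3 higher, 1 lower), 4 with a trended robust prior (all higher), 3 with sex as a covariate (2 higher, 1 lower) and 13 with slide as a random block (8 higher, 5 lower), and lay between 0 and 2 when 1 mouse was left out. Of the 5 genes most like Nmbr, 2 recurred with quantile normalization, 0 with residuals from the genotype means, and 1 to 4 with 1 mouse left out. Same-numbered mice did not all deviate together (correlations -0.316, 0.388, -0.422 and 0.0675), so the numbers were not treated as pairs. With 1 mouse of each genotype per number, the replicate block cannot move a difference (Nmbr 2.27 with it), and it gave 0 genes past the threshold. At an unadjusted p under 0.05, the trended robust prior gave 1261 higher and 599 lower genes. The cause of these changes was not tested.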
